A study of Danio rerio with 40 samples.

Results

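The *dmrt1* amplicon is a stretch of 483 bp on zebrafish chromosome 5 (GRCz11, plus strand, 5:44344542-44345024) around the transcription start of *dmrt1*. By the study's primer table it reached 249 bp before and 234 bp after that start, whose first transcribed base lies at 44344791. The sites described here were all CpG sites inside these coordinates, 24 of the 99 CpG sites that bisulfite sequencing covered in 6 gonadal amplicons, with 10 sites before the start and 14 after it. Sites are named by their distance in bases from the start, from −224 to +209. The study's methods state that its targets covered promoter, first exon and first intron as far as possible, and an annotation of this build was not used here, so single sites are not assigned to an exon or intron.

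The fish were AB strain zebrafish (*Danio rerio*), a wild-type laboratory strain, from a single family and 90 days old when the whole gonads were taken. The study's results and methods sections give different numbers for this family. High density fish had been held at 66 fish/L from 18 to 45 days post fertilization, and control fish at 9 fish/L. There were 10 testes and 10 ovaries of each density, 40 fish in all, each measured in 1 library. The comparisons ask whether methylation of the *dmrt1* start region differed between testes and ovaries and whether crowding during sex differentiation left a trace in it. A gonad is a mixture of germ cells and somatic cells, and in whole gonads a different share of cells of a type and a different methylation per cell cannot be told apart.

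The protein encoded by *dmrt1* is a transcription factor with a DM domain, a zinc-binding domain that contacts DNA, and across vertebrates it is known for promoting testis development and for maintaining male identity of the gonad. In bisulfite sequencing, unmethylated cytosines are read as thymine and methylated ones as cytosine, so the methylation level of a site is the percentage of its reads that kept the cytosine. Methylated CpG sites around a transcription start are commonly found at genes that are little transcribed, but expression was not analysed here.

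All values came from molecules amplified with the following primer pair for converted DNA, taken from the study's primer table. They are shown because they fix the ends of the measured window, and neither holds a CpG.
forward primer: aatattttttattgtggtgtttgtt
reverse primer: caaaataacctctcataaccttatC

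The primers were placed by the ends of the amplicon and their own lengths, and were not aligned to the genome. So placed, the forward primer spans 5:44344542-44344566, and it contained 0 cytosines. The reverse primer spans 5:44345000-44345024 on the opposite strand and contained 0 guanines. The first site, −224, was the base that followed the forward primer. The capital C at the 3′ end of the reverse primer pairs with the G of the last CpG, whose cytosine is the site +209. The sequence between the primers was not used here.

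Every one of the 24 sites was covered by more than 5 reads in each of the 40 fish, so all 960 values entered the levels. Depth differed between the groups. The median coverage of a *dmrt1* site was 1866 to 28422 reads in testes at 66 fish/L, 245 to 2461 reads in testes at 9 fish/L, 97 to 5628 reads in ovaries at 66 fish/L and 9 to 1607 reads in ovaries at 9 fish/L. In 3 control ovaries it was only 9, 11 and 20 reads. Because these reads were PCR products without molecular identifiers, limits set from read numbers cover counting error only.

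At one site, −146 (position 44344645), coverage fell into separate classes of fish. Among the 37 fish with at least 30 reads per site, 22 had 47.2 to 64.8% of their own median coverage there and the other 15 had 97.4 to 100%. Reduced coverage was seen in 6 of 10 testes at 66 fish/L and 7 of 10 testes at 9 fish/L, and in 6 of 10 ovaries at 66 fish/L and 3 of 7 ovaries at 9 fish/L. The other 23 sites had at least 96.6% of the fish's median coverage in all 40 fish. Why reads were missing at −146 was not tested, and comparisons of the before-start level are also given without this site.

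**Figure D1:**
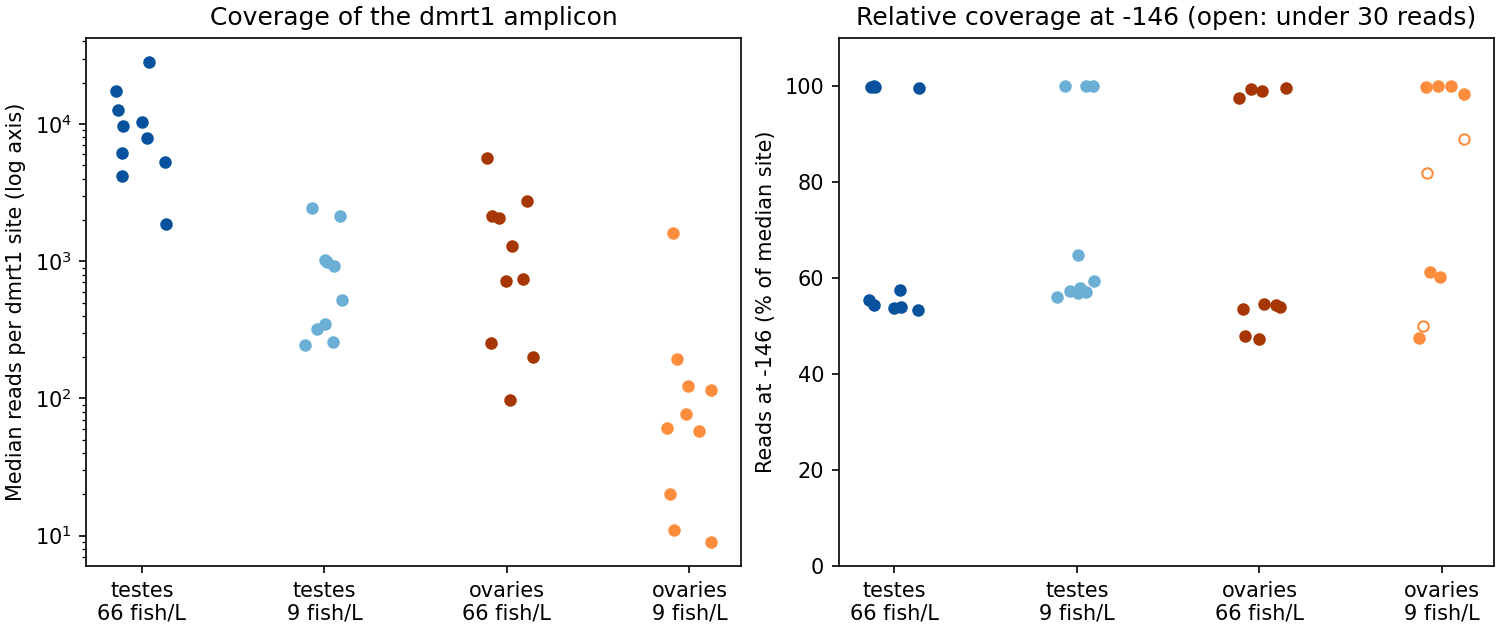
Left, median number of reads per *dmrt1* site in each fish on a log axis, by group. Right, reads at the site −146 as a percentage of the fish's median site; each point is 1 fish, open points are the 3 ovaries with fewer than 30 reads, and the filled points form a class of 22 fish at 47.2 to 64.8% and a class of 15 fish at 97.4 to 100%.

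Methylation of the *dmrt1* start region was low in every testis and intermediate in every ovary. Averaged over the 24 sites, the lowest, median and highest levels were 1.93, 2.34 and 4.11% in testes at 66 fish/L and 0.950, 1.81 and 5.04% in testes at 9 fish/L. The same values were 21.6, 29.5 and 41.2% in ovaries at 66 fish/L and 23.3, 29.9 and 51.5% in ovaries at 9 fish/L. The sexes did not overlap at either density, whereas the densities overlapped in both sexes. The amplicon of *dnmt1*, which encodes the maintenance DNA methyltransferase, averaged 0.479 ± 0.0671% in testes at 66 fish/L and 0.479 ± 0.133% in testes at 9 fish/L (SD, n = 10 each), so the same testes had a lower reading elsewhere than at *dmrt1*.

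The level did not follow a single gradient along the amplicon. In testes at 66 fish/L the means were 4.98 ± 1.74% at −174, 1.31 ± 0.440% at −86, 3.22 ± 1.40% at −53, 1.19 ± 0.442% at +47, 5.71 ± 2.08% at +165 and 2.39 ± 0.557% at +209 (SD, n = 10). In testes at 9 fish/L the same sites had 4.09 ± 2.18%, 1.02 ± 0.638%, 2.43 ± 1.70%, 0.874 ± 0.654%, 4.24 ± 2.09% and 2.56 ± 1.52%. A hump around −174, a low at −86 and a rise at −53 came before the start. After it, a low stretch from +24 to +70 and a high block from +162 to +175 made up most of the profile. The sites −201, −174, −146, −112, −86, −56, +52 and +84 were singled out after their values had been seen.

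Ovaries showed the same succession of highs and lows on a far larger scale. At 66 fish/L the ovarian means were 50.6 ± 10.7% at −174, 10.8 ± 6.70% at −86, 36.0 ± 10.5% at −53, 10.02 ± 5.40% at +47, 73.2 ± 9.55% at +165 and 34.8 ± 7.69% at +209. At 9 fish/L they were 49.0 ± 14.7%, 14.6 ± 8.19%, 39.3 ± 15.4%, 15.1 ± 8.64%, 77.2 ± 6.43% and 41.4 ± 6.07% (SD, n = 10 each). Across the 24 sites, Spearman's rho between the testicular and the ovarian means was 0.915 at 66 fish/L and 0.891 at 9 fish/L. Between the densities it was 0.960 in testes and 0.959 in ovaries. These coefficients describe sites that share the same libraries, and sites are not independent replicates.

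Rank correlation with position along the amplicon was weak in all groups, with rho of −0.107 and −0.0487 in testes at 66 and 9 fish/L and 0.159 and 0.226 in ovaries at 66 and 9 fish/L (24 sites each). The highest site was +165 in 6 of 10 testes at 66 fish/L and 2 of 10 testes at 9 fish/L, and in 9 of 10 ovaries at 66 fish/L and 6 of 10 ovaries at 9 fish/L. In testes at 9 fish/L it was −174 in 3 fish and +162 in 2 fish. The lowest site in ovaries at 66 fish/L was −86 in 4 fish, +47 in 4 fish and +29 in 2 fish. In testes at 66 fish/L the lowest site fell on 6 different sites.

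**Figure D2:**
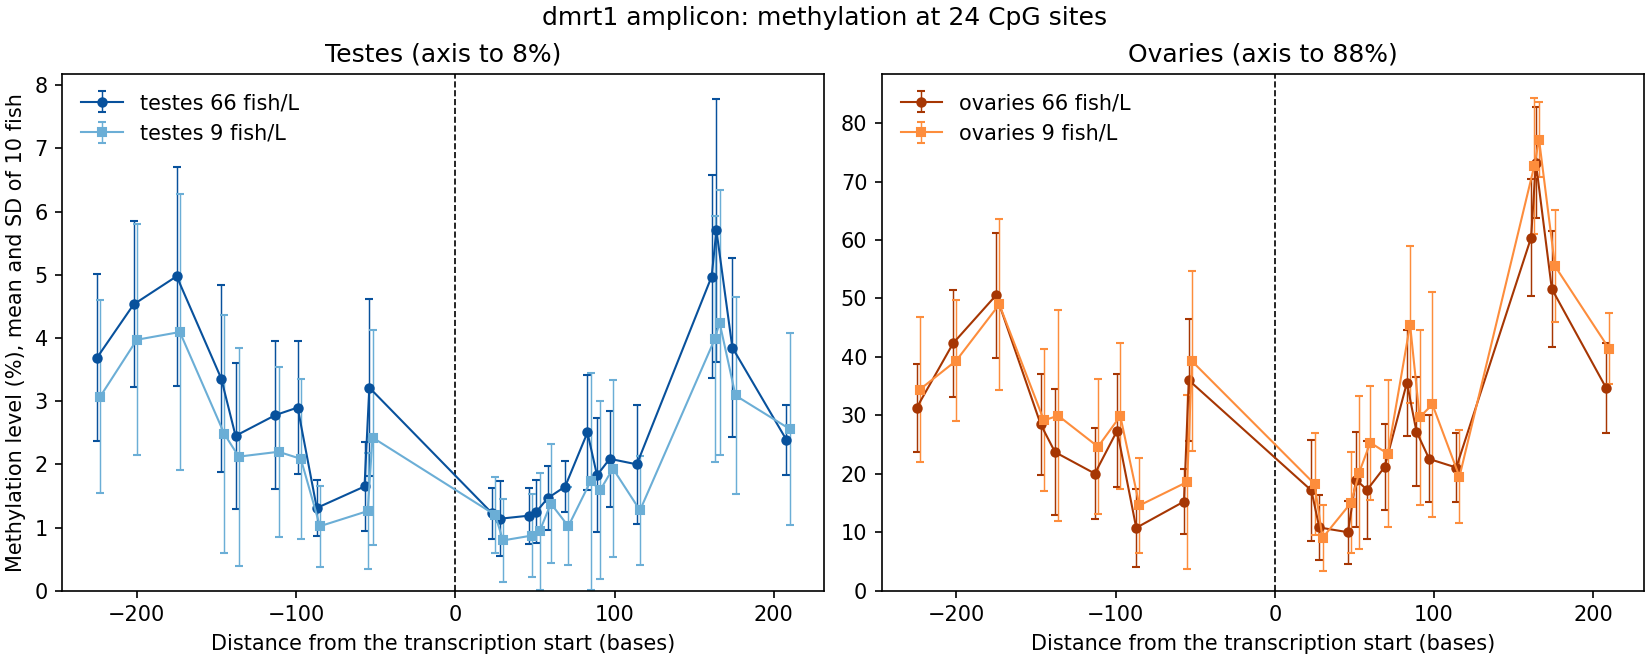
Mean methylation level (%) and SD over 10 fish at each of the 24 CpG sites against the distance from the transcription start (dashed line), in testes (left) and ovaries (right) at 66 fish/L (circles) and 9 fish/L (squares); lower bars stop at 0 and the panels have different axes. Both sexes had a peak at −174, low means at −86 and from +24 to +47, and a higher mean at −53 between these lows. The highest mean was at +165, where testes had 5.71 and 4.24% and ovaries 73.2 and 77.2%, at 66 and 9 fish/L in that order.

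Neighbouring sites differed sharply over short distances. Between −56 and −53, which lie 3 bases apart, the level was higher at −53 in 10 of 10 testes at 66 fish/L and 9 of 10 testes at 9 fish/L, by 1.56 ± 0.868 and 1.16 ± 0.914 percentage points (SD). It was higher in 10 of 10 ovaries at both densities, by 20.8 ± 6.76 points at 66 fish/L and 20.7 ± 9.97 points at 9 fish/L. The pair +162 and +165, also 3 bases apart, differed by less in ovaries on average, with changes of 12.8 ± 10.2 points at 66 fish/L and 4.49 ± 11.6 points at 9 fish/L. From +115 to +162, 47 bases, the level was higher at +162 in all 40 fish, by 2.97 ± 0.988 and 2.71 ± 1.38 points in testes and by 39.3 ± 7.26 and 53.2 ± 11.6 points in ovaries at 66 and 9 fish/L.

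The sites on both sides of the start, −53 and +24, spanned 76 bases without a CpG site. At −53 the lowest, median and highest levels were 1.68, 2.91 and 5.36% in testes at 66 fish/L, 0, 2.04 and 6.38% in testes at 9 fish/L, 21.3, 35.6 and 53.2% in ovaries at 66 fish/L and 21.3, 35.6 and 67.2% in ovaries at 9 fish/L. At +24 they were 0.810, 1.16 and 2.25% in testes at 66 fish/L, 0.504, 1.16 and 2.71% in testes at 9 fish/L, 7.40, 14.7 and 34.0% in ovaries at 66 fish/L and 0, 19.1 and 30.4% in ovaries at 9 fish/L. The level was lower at +24 than at −53 in 10 of 10 testes and 10 of 10 ovaries at 66 fish/L, and in 9 of 10 testes and 9 of 10 ovaries at 9 fish/L. In ovaries the change averaged −18.9 ± 7.64 points at 66 fish/L and −21.01 ± 15.6 points at 9 fish/L.

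**Figure D3:**
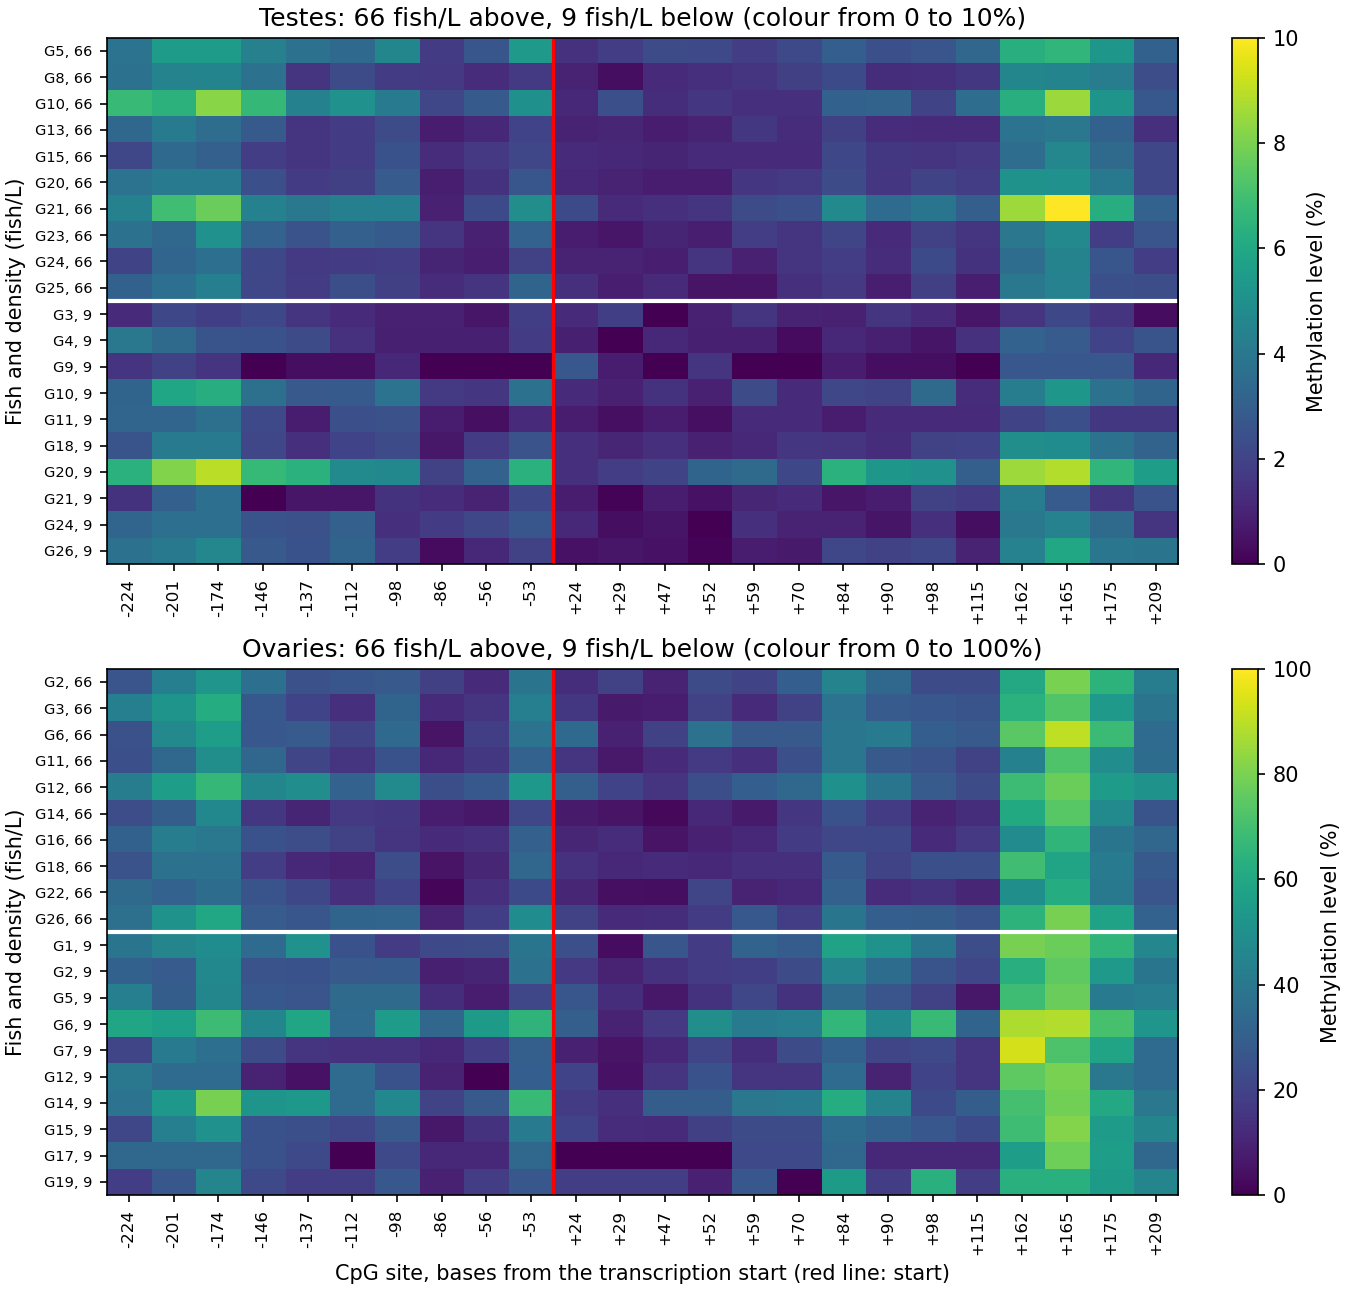
Methylation level (%) of each of the 24 CpG sites (columns, in order along the amplicon, labelled by distance from the start) in each of the 40 fish (rows), testes above with colour from 0 to 10% and ovaries below with colour from 0 to 100%; the white line divides 66 fish/L (above it) from 9 fish/L and the red line marks the start. The columns +162 and +165 hold high values in both sexes, as does −174, and the rows of testis G20 and ovary G6, both at 9 fish/L, are the highest of their groups on average, with 5.04 and 51.5%.

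Levels before and after the start were then compared between the sexes. Before the start, the mean level was 3.09 ± 1.07% in testes and 28.6 ± 7.45% in ovaries at 66 fish/L, and 2.47 ± 1.39% in testes and 30.9 ± 10.96% in ovaries at 9 fish/L (SD, n = 10 each). After the start it was 2.38 ± 0.746% in testes and 30.1 ± 6.59% in ovaries at 66 fish/L, and 1.90 ± 1.03% in testes and 34.6 ± 7.63% in ovaries at 9 fish/L. The highest testis lay below the lowest ovary in each of these 4 comparisons. Testes were lower by 25.5 points before and 27.8 points after the start at 66 fish/L, and by 28.4 and 32.7 points at 9 fish/L. Each difference had p = 1.08e-05 in a two-sided exact permutation test, the smallest value that 10 against 10 fish can give, and an adjusted p of 1.2e-05 over the before-start and after-start parts of the 6 amplicons. Without the site −146, the before-start differences were −25.5 points at 66 fish/L and −28.6 points at 9 fish/L.

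All 24 sites were called lower in testes at 66 fish/L and again at 9 fish/L by the exact permutation test at an adjusted p under 0.05 over the 99 sites of the 6 amplicons. The share of all 99 sites called lower in testes was 24.2% at 66 fish/L and 24.2% at 9 fish/L, that is, the 24 *dmrt1* sites and 0 of the 75 sites of the other amplicons. Of those 75 sites, 54 at 66 fish/L and 52 at 9 fish/L were called higher in testes. With testes lower, the fish of the sexes did not overlap at 22 of 24 *dmrt1* sites at 66 fish/L (22.2% of the 99 sites). The same held at 16 of 24 sites at 9 fish/L (16.2% of the 99 sites). Every overlap at 9 fish/L involved only control ovaries G12, G17 or G19, whose median coverage was 20, 9 and 11 reads. The other 7 control ovaries lay above all control testes at all 24 sites. Sites that separated with testes higher are not in these shares. The levels of *cyp19a1a*, *cyp11c1*, *hsd17b1* and *hsd11b2*, averaged over their sites, also did not overlap between the sexes at either density, with testes higher. The largest unadjusted p of a *dmrt1* site was 4.33e-05 at 66 fish/L and 0.00013 at 9 fish/L, and the median difference over the 24 sites was −22.9 points and −27.8 points, against 0.417 and 0.329 points over all 99 sites. The 99 sites include the *dmrt1* sites themselves. Over the 75 sites of the other amplicons alone, the median difference was 25.8 points at 66 fish/L and 22.9 points at 9 fish/L, with testes higher. The quasi-binomial model of the reads also called 24 of 24 sites at both densities.

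The 3 largest sex differences were at the same sites at both densities, and all lay in the high block after the start. At +165 (position 44344955) the lowest, median and highest levels were 3.97, 4.67 and 10.2% in testes and 58.3, 73.3 and 90.5% in ovaries at 66 fish/L, and 2.18, 3.65 and 8.86% in testes and 63.6, 77.7 and 88.5% in ovaries at 9 fish/L. The difference was −67.5 points at 66 fish/L and −72.9 points at 9 fish/L. At +162 (position 44344952) the levels were 3.58, 4.29 and 8.53% in testes and 44.1, 62.3 and 74.2% in ovaries at 66 fish/L, and 1.56, 4.13 and 8.53% in testes and 55.6, 69.8 and 93.5% in ovaries at 9 fish/L. Its differences were −55.4 and −68.7 points. At +175 (position 44344965) testes had 1.80, 3.76 and 6.24% and ovaries 38.9, 51.3 and 68.0% at 66 fish/L, while at 9 fish/L testes had 1.56, 3.07 and 6.59% and ovaries 40, 55.3 and 71.1%. None of these ranges overlapped between the sexes.

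The smallest sex difference was at +47 at 66 fish/L and at +29 at 9 fish/L, the sites with the lowest ovarian means. At +47 (position 44344837) testes had 0.783, 1.11 and 2.31% and ovaries 2.24, 10.9 and 19.6% as lowest, median and highest levels at 66 fish/L, and at 9 fish/L testes had 0, 0.801 and 2.05% and ovaries 0, 14.8 and 29.3%. At +29 (position 44344819) testes had 0.368, 1.03 and 2.44% and ovaries 4.29, 10.4 and 20.2% at 66 fish/L, and at 9 fish/L testes had 0, 0.689 and 1.87% and ovaries 0, 9.70 and 18.2%. The differences were −8.84 and −14.2 points at +47 and −9.70 and −8.25 points at +29, at 66 and 9 fish/L in that order. The ranges met at +47 at both densities and at +29 at 9 fish/L. At 9 fish/L the lowest ovary at both sites had 9 reads and 0 methylated ones, which allows a level of up to 33.3%. At +47 at 66 fish/L the lowest ovary, G14, had 2.24% and a median coverage of 1296 reads. The ranges also met at −86 at 66 fish/L, where the lowest ovary, G22, had 1.54% and a median coverage of 2729 reads. The highest testis at −86, G10, had 2.11%.

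The ends of the window lay between these extremes. At the first site, −224 (position 44344567), testes had 2.04, 3.78 and 6.76% and ovaries 23.7, 28.7 and 43.3% at 66 fish/L, and testes 1.25, 3.23 and 6.38% and ovaries 18.2, 35.6 and 59.1% at 9 fish/L. At the last site, +209 (position 44344999), testes had 1.38, 2.36 and 3.15% and ovaries 26.1, 34.1 and 51.0% at 66 fish/L, and testes 0.313, 2.57 and 5.62% and ovaries 33.3, 41.1 and 52.2% at 9 fish/L. Again the sexes did not overlap at either site.

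The sexes were also compared as a ratio. The ovarian mean of a site was 7.21 to 15.2 times the testicular mean at 66 fish/L, with a median of 10.7, and 9.91 to 26.2 times at 9 fish/L, with a median of 15.8. The lowest ratio was at −112 at 66 fish/L and at −201 at 9 fish/L, both before the start, and the highest at +52 and +84, both after it. Reads left unconverted by bisulfite count as methylated and were not subtracted. With testicular means this low, the ratios are sensitive to them.

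The step from before to after the start was compared as well. The level after minus before the start was below 0 in 10 of 10 testes at 66 fish/L and 9 of 10 testes at 9 fish/L, with means of −0.711 ± 0.548 and −0.572 ± 0.551 points. It was above 0 in 5 of 10 ovaries at 66 fish/L and 8 of 10 ovaries at 9 fish/L, with means of 1.56 ± 4.47 and 3.74 ± 5.22 points (SD, n = 10 each). The difference between testes and ovaries was −2.27 points at 66 fish/L (exact permutation p = 0.134, adjusted p = 0.134 over the 4 genes with sites on both sides) and −4.31 points at 9 fish/L (p = 0.0168, adjusted p = 0.0224). At 9 fish/L it did not pass the threshold once the 3 ovaries with fewer than 30 reads were left out (−3.28 points, adjusted p = 0.103), and it was −4.11 points without the site −146 (adjusted p = 0.0294). At 66 fish/L it passed without ovary G12 (−3.03 points, adjusted p = 0.0281). With the median over sites in place of the mean, the difference had the opposite sign at both densities (2.15 and 2.73 points, adjusted p = 0.287 and 0.0804).

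The step was also taken as a ratio, a scale chosen after the data had been seen. The after-start level was 0.777 times the before-start level in testes and 1.06 times in ovaries at 66 fish/L, and 0.80 times in testes and 1.15 times in ovaries at 9 fish/L (geometric means, n = 10). On the log2 scale testes minus ovaries was −0.45 at 66 fish/L (exact permutation p = 0.000108, adjusted p = 0.000144) and −0.53 at 9 fish/L (p = 0.00478, adjusted p = 0.00638). In this adjustment the other genes kept their steps in percentage points. Unconverted reads were not subtracted here either, which matters most for the low levels of testes.

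**Figure D4:**
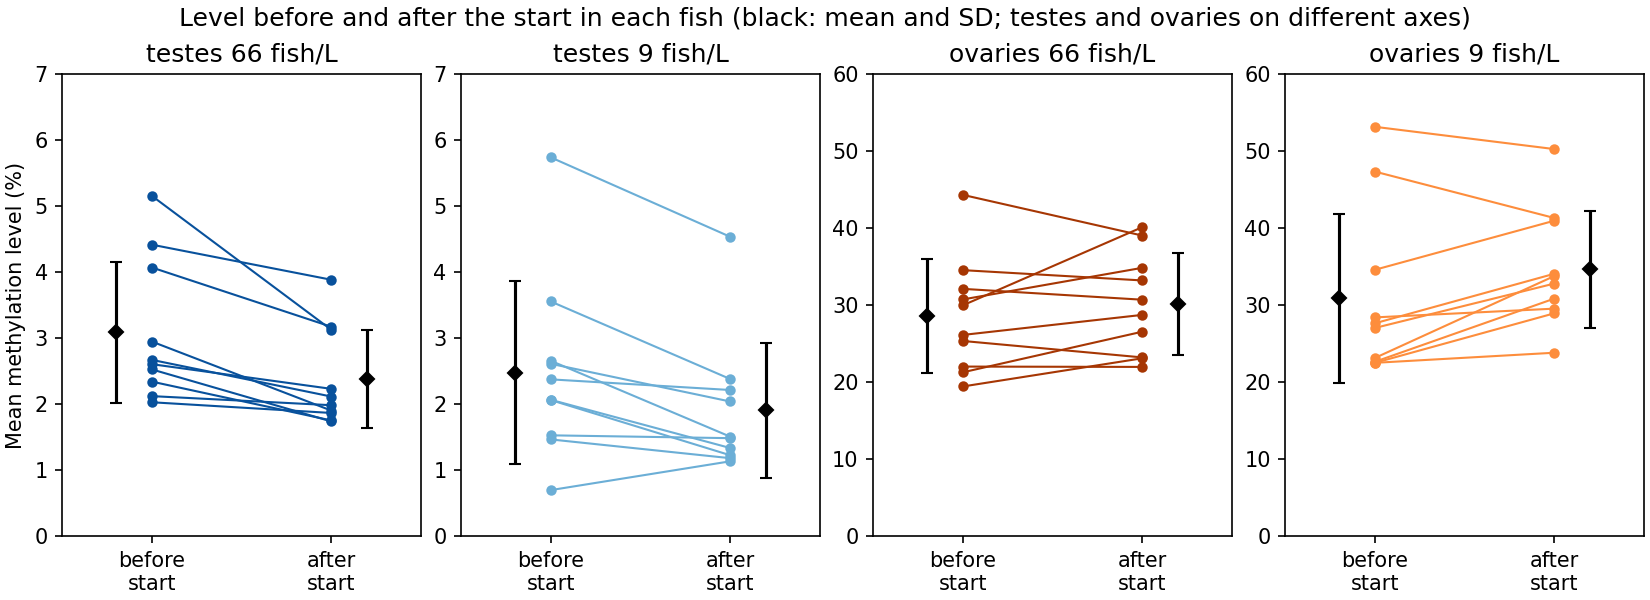
Mean methylation level (%) over the 10 sites before and the 14 sites after the start; each line is 1 fish, black diamonds and bars are the mean and SD of 10 fish, and testes and ovaries have different axes. Lines fall in 10 of 10 testes at 66 fish/L and 9 of 10 at 9 fish/L, and run both ways in ovaries, upwards in 5 of 10 fish at 66 fish/L and 8 of 10 at 9 fish/L.

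Before-start and after-start levels went together from fish to fish within each group. Pearson's r was 0.88 in testes at 66 fish/L, 0.94 in testes at 9 fish/L, 0.80 in ovaries at 66 fish/L and 0.90 in ovaries at 9 fish/L, and Spearman's rho was 0.75, 0.92, 0.78 and 0.86 in the same order (n = 10 each). Permutation p-values adjusted over the 4 relations were 0.00397, 0.00094, 0.00397 and 0.00094 for r, and 0.0172, 0.00196, 0.014 and 0.0049 for rho. Without the 2 fish farthest from the median before-start level, r was 0.72 to 0.87. A fish that was high on one side of the start tended to be high on the other. Both levels were read from the same amplified molecules of 1 library per fish, so errors of sampling and amplification were shared by both. The p-values do not separate such shared errors from differences between fish, and their part was not tested.

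The spread between fish is set beside the counting error of the reads as a description. The SD over fish was 2.51 to 7.03 times the SD that read numbers alone would give at the sites of testes at 66 fish/L, 1.24 to 2.95 times in testes at 9 fish/L, 2.91 to 5.12 times in ovaries at 66 fish/L and 0.687 to 2.30 times in ovaries at 9 fish/L. Levels of 0 were listed for 12 values in 5 testes at 9 fish/L and for 7 values in 3 ovaries at 9 fish/L. Taking 3 reads of the fish's median coverage, this allows a level of up to 0.295 to 1.16% in those testes and of up to 15 to 33.3% in those ovaries. Testes G9 and G21 at 9 fish/L each had a 0 at −146 with only 148 and 659 reads, which allows a higher level there. Testis G9 also had 0 at other sites.

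Density was compared within each sex. In testes the mean level before the start was 3.09 ± 1.07% at 66 fish/L and 2.47 ± 1.39% at 9 fish/L, a difference of 0.613 points (exact permutation p = 0.287), and after the start 2.38 ± 0.746% and 1.90 ± 1.03%, a difference of 0.474 points (p = 0.26, adjusted p = 0.575 for both). In ovaries the level before the start was 28.6 ± 7.45% at 66 fish/L and 30.9 ± 10.96% at 9 fish/L, a difference of −2.31 points (p = 0.596), and after the start 30.1 ± 6.59% and 34.6 ± 7.63%, a difference of −4.49 points (p = 0.176, adjusted p = 0.758 for both). None of these differences passed the threshold, and the fish of both densities overlapped throughout. Without the site −146 the before-start differences were 0.583 points in testes and −2.49 points in ovaries. Single fish moved these values. Without testis G20 at 9 fish/L, the highest of its group, the differences in testes were 0.975 points before the start (exact permutation p = 0.0419, adjusted p = 0.419) and 0.766 points after it (p = 0.0149, adjusted p = 0.149). Without ovary G6 at 9 fish/L, also the highest of its group, those in ovaries were 0.166 points before and −2.75 points after the start. The step across the start differed between densities by −0.139 points in testes (adjusted p = 0.658) and −2.18 points in ovaries (adjusted p = 0.478).

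By single sites, 0 of 24 *dmrt1* sites were called between densities in testes and 0 of 24 in ovaries by the exact permutation test, where 0.0% of the 99 sites were called in either sex. At an unadjusted p under 0.05 there was 1 *dmrt1* site in testes (4 of all 99 sites) and 2 in ovaries (5 of all 99 sites). The quasi-binomial model called 0 in both sexes, with 0 sites in testes and 1 in ovaries at an unadjusted p under 0.05. In testes 23 of 24 sites had a higher mean at 66 fish/L, with a median difference of 0.57 points against 0.0516 points over all 99 sites. In ovaries 20 of 24 sites had a lower mean at 66 fish/L, with a median difference of −3.30 points against −1.21 points. Sites of a fish go together, so these counts are not independent, and coverage differed with density too, with medians of 8797 reads at 66 fish/L and 724 reads at 9 fish/L in testes and 1022 and 69 reads in ovaries. The part of coverage in these differences was not tested, beyond the higher coverage minimums and the fish left out for low coverage.

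The sites with the smallest p in testes were +70, +115 and −98. At +70 (position 44344860) the lowest, median and highest levels were 1.204, 1.55 and 2.42% at 66 fish/L and 0, 1.07 and 2.16% at 9 fish/L, with means of 1.65 ± 0.407% and 1.02 ± 0.614% (difference 0.629 points, exact permutation p = 0.0142, adjusted p = 0.771). At +115 (position 44344905) the means were 2.001 ± 0.946% at 66 fish/L and 1.27 ± 0.868% at 9 fish/L, with p = 0.09 in the exact permutation test, and at −98 (position 44344693) 2.90 ± 1.06% and 2.09 ± 1.27%, with p = 0.137. The ranges overlapped at all 3 sites.

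In ovaries the sites with the smallest p were +162, +209 and +59, all after the start. At +162 the mean was 60.4 ± 9.98% at 66 fish/L and 72.7 ± 11.6% at 9 fish/L (a change of −12.3 points, exact permutation p = 0.0205, adjusted p = 0.772). At +209 it was 34.8 ± 7.69% and 41.4 ± 6.07% (difference −6.64 points, p = 0.0476, adjusted p = 0.791), and at +59 (position 44344849) 17.3 ± 8.42% and 25.3 ± 9.74% (difference −8.08 points, p = 0.0634, adjusted p = 0.791). The lowest, median and highest levels at +59 were 7.25, 13.4 and 29.7% at 66 fish/L and 12.99, 22.6 and 41.7% at 9 fish/L. None of the 3 sites passed the threshold after adjustment.

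**Figure D5:**
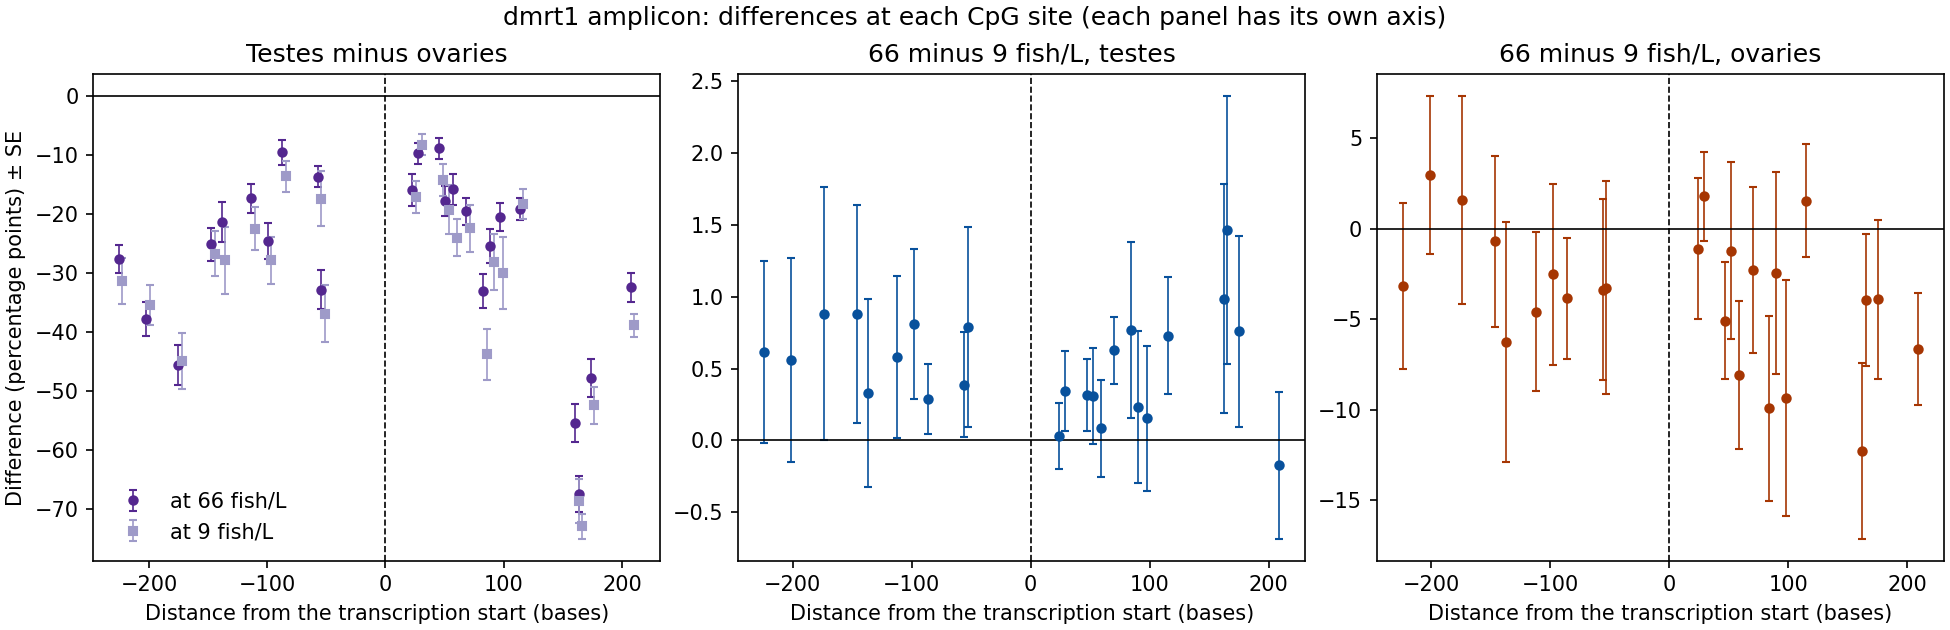
Difference in methylation level (percentage points, with its SE) at each of the 24 CpG sites against the distance from the transcription start (dashed line): testes minus ovaries at both densities (left), 66 minus 9 fish/L in testes (centre) and in ovaries (right), each panel with its own axis. The sex difference is largest at +165, −67.5 and −72.9 points at 66 and 9 fish/L, while the density differences span −0.173 to 1.46 points in testes and −12.3 to 2.96 points in ovaries.

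The density difference of testes minus that of ovaries was 2.92 points before the start (permutation p = 0.496, adjusted p = 0.986), 4.96 points after it (p = 0.121, adjusted p = 0.604) and 2.04 points for the step (p = 0.349, adjusted p = 0.47). The after-start value passed the threshold when the 7 fish with a median coverage under 100 reads were left out (10.96 points, adjusted p = 0.0058). This kept 9 ovaries at 66 fish/L and 4 at 9 fish/L, among them control ovary G6 with an after-start level of 50.3%, the highest of its group. The test permuted the residuals of both sexes together, although ovaries varied far more than testes (after-start SD 6.59 against 0.746 points at 66 fish/L). Its p-values are therefore approximate, above all in this unbalanced subset. In those ovaries the after-start density difference was −10.5 points (exact permutation p = 0.021, adjusted p = 0.21).

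No relation between coverage and level passed the threshold within a group after adjustment. Pearson's r between the log10 of the median coverage and the level over the 24 sites was −0.021 in testes at 66 fish/L, 0.51 in testes at 9 fish/L, −0.25 in ovaries at 66 fish/L and 0.31 in ovaries at 9 fish/L (permutation p adjusted over 4 relations of 0.953, 0.472, 0.653 and 0.653, n = 10). Spearman's rho was −0.018, 0.66, −0.28 and 0.56, with adjusted permutation p-values of 0.974, 0.176, 0.572 and 0.193. Without the 2 fish farthest from the median of the log10 coverage, r was −0.17, 0.57, −0.27 and 0.40.

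The *dmrt1* level was then set against the levels of the other 5 genes over the 20 fish of a sex, 10 relations in all. The 2 farthest fish are those farthest from the median level of the other gene, not of *dmrt1*. In testes the largest absolute Spearman's rho was that of *hsd17b1*, which encodes a steroid dehydrogenase, and it was negative, so that testes with a higher *dmrt1* level had a lower *hsd17b1* level (rho = −0.61, permutation p = 0.00519, adjusted p = 0.0247). Its Pearson's r was −0.46 (p = 0.0416, adjusted p = 0.112) and −0.35 without the 2 farthest fish, and rho within the densities was −0.54 at 66 fish/L (p = 0.116) and −0.54 at 9 fish/L (p = 0.115, permutation tests, n = 10 each). Nearly as large was rho for *hsd11b2*, which encodes a dehydrogenase that inactivates cortisol, at −0.60 (permutation p = 0.0065, adjusted p = 0.0247), with an r of −0.52 (adjusted p = 0.106) and −0.32 without the 2 farthest fish. Its rho within the densities was −0.71 at 66 fish/L (p = 0.0269) and −0.60 at 9 fish/L (p = 0.0743, permutation tests, n = 10 each). Positive relations in testes did not exceed a rho of 0.018, for *dnmt1*.

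In ovaries *cyp11c1*, which encodes a steroid hydroxylase of androgen and cortisol synthesis, and *hsd17b1* had nearly the same rho, both positive. For *cyp11c1* rho was 0.58 (permutation p = 0.00912, adjusted p = 0.0247) and r was 0.45 (p = 0.047, adjusted p = 0.112), or 0.41 without the 2 farthest fish, and rho within the densities was 0.54 at 66 fish/L (p = 0.114) and 0.50 at 9 fish/L (p = 0.146, permutation tests, n = 10 each). For *hsd17b1* rho was 0.57 (permutation p = 0.00987, adjusted p = 0.0247) and r was 0.69 (p = 0.00086, adjusted p = 0.0086), the one relation of the 10 whose r passed the threshold, or 0.50 without the 2 farthest fish. Its rho within the densities was 0.41 at 66 fish/L (p = 0.245) and 0.76 at 9 fish/L (p = 0.0152, permutation tests, n = 10 each).

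The sex difference of *dmrt1* was opposite in sign to that of *cyp19a1a*, *cyp11c1*, *hsd17b1* and *hsd11b2* at both densities. The *dnmt1* level was 0.479% in testes and 0.369% in ovaries at 66 fish/L (exact permutation p = 0.0762) and 0.479% in testes and 0.605% in ovaries at 9 fish/L (p = 0.191), so the difference of its mean level passed the threshold at neither density. By single sites, 10 of 26 *dnmt1* sites at 66 fish/L and 7 of 26 at 9 fish/L were called higher in testes, and 0 were called lower. In each fish the *dmrt1* level minus the mean level of the other 5 amplicons was −67.9 ± 1.85 points in testes and −3.06 ± 4.64 points in ovaries at 66 fish/L, and −68.8 ± 1.78 points in testes and −1.17 ± 7.15 points in ovaries at 9 fish/L (SD, n = 10 each). Testes minus ovaries was −64.8 points at 66 fish/L and −67.7 points at 9 fish/L (two-sided exact permutation p = 1.08e-05 each). Of these, the *dmrt1* level itself gave −26.8 and −30.9 points, and the rest came from the other amplicons, most of which were higher in testes. The result thus follows from the sex differences already given, and its p-value adds no separate evidence. The same value differed between densities by 0.941 points in testes (exact permutation p = 0.26) and −1.89 points in ovaries (p = 0.493).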

How the data were processed

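Bisulfite amplicon sequencing was done by the study on gonadal DNA of 40 fish. Per the labels and the study's methods, reads were trimmed with Trim Galore 0.4.5, checked with FastQC 0.11.6 and aligned to GRCz11 with Bismark and Bowtie2. The study's methods also name a deduplication step after alignment. Whether the deposited counts were taken before or after that step was not tested. The labels name Hiseq and the methods MiSeq as the sequencer. For each fish the authors deposited 1 list of cytosines, with the methylation percent and the count of methylated and of unmethylated reads, not normalized. The deposited percent equalled methylated over all reads within 1e-06 in all 7221 values.

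Groups came from the labels (sex, density treatment), and the densities in fish/L from the study. The level of a fish was the unweighted mean over sites with more than 5 reads. The 24 sites were the deepest cytosines, as many as the study's primer table gives. The lists hold 14 other positions with 107 reads in all, which entered only as an alternative. Groups were compared by two-sided exact permutation tests over all 184756 splits, and the interaction by permuting residuals with 100000 resamples. P-values were adjusted by the Benjamini-Hochberg method over all amplicons, with a threshold of 0.05. With 1 fish left out, only the p-value of the *dmrt1* part in question was computed anew. It was adjusted together with the other p-values from all fish. The methods' two-way ANOVA was an alternative. Only the single-site tests between densities were checked on simulated reads. In these, sites were drawn independently, and some were changed by more than any density difference seen at *dmrt1*. The power of the tests to find differences as small as those seen between densities was not tested. Analyses used Python 3.11.15, numpy 2.4.6, pandas 2.3.3, scipy 1.17.1 and matplotlib 3.10.9.

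Sites with full values were the first and last, those on both sides of the start, the highest and lowest in ovaries, the highest in testes, the 3 with the largest sex difference and the 3 with the smallest p per density comparison. The gene set beside *dmrt1* in each sex was the one with the largest absolute Spearman's rho, and others whose rho passed the threshold were added after their values were seen. The amplicon, the sites and the tests were chosen with earlier results of these data known. The p-values set group differences against the spread between these fish, which came from a single family. Density was applied to tanks, and the labels do not give the tank of a fish, so effects of density and of tank cannot be told apart.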

Additional observations from a re-analysis of the deposited data

Results flagged for a closer look

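In 68 sets of 10 fish (levels, step and 13 sites in 4 groups), 9 values lay far from the other fish of their group by Dixon's test. That test flags about 1 in 20 sets by chance when sets are independent and normally distributed. The sets here share fish, and the levels include the sites, so the number of flags cannot be judged against that rate. All 9 were in testes. At 66 fish/L, fish G10 had a step across the start of −2.03 points (next fish −1.04) and 6.76% at −224 (next 4.39%), fish G21 had 2.25% at +24 (next 1.41%) and fish G5 had 2.31% at +47 (next 1.34%). At 9 fish/L, fish G20 had a level after the start of 4.54% (next 2.38%), a level over all sites of 5.04% (next 2.87%), 8.53% at +162 (next 4.94%) and 6.59% at +175 (next 3.93%), and fish G9 had 2.71% at +24 (next 1.40%).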

How the results depend on the processing

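The sex differences before and after the start kept their direction and passed the threshold under all alternatives run on them, at −24.3 to −25.5 and −22.2 to −27.8 points at 66 fish/L and at −25.0 to −33.1 and −26.2 to −37.6 points at 9 fish/L, and also with any 1 fish left out. The 24 of 24 sites called between sexes and the 0 called between densities did not change under any coverage minimum or model run.

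The step across the start was less stable. Its sex difference at 9 fish/L missed the threshold with at least 30 reads (−3.27 points), with fish under 30 reads left out (−3.28) and with Tukey's HSD after two-way ANOVA (−4.31, adjusted p = 0.0537). As a median over sites it changed sign between sexes at 66 (2.15) and 9 fish/L (2.73), between densities in ovaries (0.44) and in the interaction (−0.584). As a log2 ratio it passed at 66 fish/L (−0.45). The 20% trimmed mean turned the before-start density difference of ovaries to 0.478 points, and the after-start interaction passed without fish under 100 reads (10.96). The cause was not tested.

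Leaving out 1 fish at a time gave −3.03 to −1.31 for the sex step at 66 fish/L (−1.31 without ovary G6 at 66 fish/L), −4.06 to 0.166 for the before-start density difference in ovaries (above 0 without control ovary G6), −5.69 to −2.75 for the after-start one in ovaries (−2.75 without the same fish), 0.383 to 0.975 and 0.306 to 0.766 for those before and after the start in testes (highest without control testis G20, lowest without testes G10 and G21 at 66 fish/L), and −0.209 to 0.00732 for the step between densities in testes (above 0 without testis G10 at 66 fish/L). With a replicate block, pairing the 4 code numbers that each sex shares, the step between densities was 2.34 points in ovaries and 0.119 in testes (exact sign-flip p = 0.875 each, smallest possible 0.125), and no call changed. Deviations of same-numbered fish correlated at −0.435 to 0.388. No differently numbered fish were set beside them, so these values do not decide whether the numbers pair the fish. The merging of opposite strands was not run, since no such pairs are listed for these sites, and the interaction was not run on trimmed means. Depth limits the control ovaries most, 3 of which had 9 to 20 reads.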
